A study of Mus musculus with 6 samples.

Results

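Neurofilament genes and their companions of the neuronal cytoskeleton were followed through the cerebellum of mice that lack Tmem106b. Their 10 genes were taken by symbol from 43346 genes of the count table, and each had a single row there. They encode the neurofilament light, medium and heavy chains (Nefl, Nefm and Nefh), the related filament protein alpha-internexin (Ina), neuron-specific beta-tubulin (Tubb3), the microtubule-associated proteins Map1b and Map2, and the tubulin-binding protein stathmin-2 (Stmn2). The remaining pair, the surface glycoprotein gene Thy1 and the ubiquitin hydrolase gene Uchl1, are general neuronal genes whose products are not parts of the cytoskeleton. All 10 passed the filter on low counts, as did 16934 genes in all.

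The study's title ties loss of Tmem106b, which encodes a lysosomal membrane protein, to death of Purkinje cells and to motor deficits. Bulk RNA was sequenced from cerebellar tissue of 15-month-old mice, 3 wild-type (WT, Tmem106b+/+) and 3 homozygous knockout (KO, Tmem106b-/-), with 1 female and 2 males per genotype and 1 library per mouse. Neither the strain nor the design of the knockout allele is stated in the labels. In both groups replicate 1 is the female, and the replicate numbers follow the order of deposit.

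Neurofilaments are the intermediate filaments of mature neurons. They are built from the light, medium and heavy chains together with alpha-internexin, fill large axons and set their calibre. The tails of the medium and heavy chains carry repeated lysine-serine-proline motifs that are phosphorylated in axons. Microtubules run beside the filaments and are the tracks for axonal transport. In the cerebellum, neurofilaments are prominent in Purkinje cells, in the baskets that interneurons form around them, and in the large neurons of the deep nuclei.

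The library totals ran from 25245778 to 31135185 counts. Tmem106b, the targeted gene, fell from 245 ± 19.4 to 66.8 ± 3.64 CPM (SD, n = 3 per genotype), where CPM is the count relative to each library's TMM-scaled size. Markers of Purkinje and granule cells were abundant in every library. Of 16 brainstem and spinal cord markers, 0 passed the filter, their summed level was 0.398 to 1.51 CPM, and Hoxd4 had 0 counts throughout. WT replicate 1 stood apart in choroid plexus genes, whose summed level was 293 CPM there against 2306 to 7281 CPM in the other 5 libraries. Between KO and WT, edgeR's quasi-likelihood test called 48 of 16934 genes, or 0.283%, at a Benjamini-Hochberg adjusted p under 0.05, 0.136% as higher and 0.148% as lower in KO.

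The main result for the 10 genes was a lower level of Nefh and Thy1 in KO, at 74.9% and 74.1% of WT, with edgeR adjusted p-values of 0.0565 and 0.156 over all genes, neither past the threshold, beside smaller differences in the rest. In edgeR 0 of the 10 passed the adjusted p of 0.05, against 0.283% of all genes, while 2, Nefh and Thy1, had an unadjusted p under 0.05, both lower, against 8.96% of all genes in either direction and 4.25% lower. DESeq2 called 2 of the 10, beside 232 of all 16934 genes, and limma-voom called 0, beside 43. The KO mean was below the WT mean in 9 of 10 genes, where 49.9% of all genes had a log2 fold change below 0. The median log2 fold change of the 10 was -0.13, beside 0.00029 over all genes. Mouse by mouse, the median of the 10 against the WT mean was 0.08, -0.13 and 0.0046 in WT replicates 1 to 3. It was -0.04, -0.12 and -0.17 in KO replicates 1 to 3, so the genotypes overlapped. In bulk tissue, fewer cells of a type and less RNA per cell cannot be told apart.

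**Figure D1:**
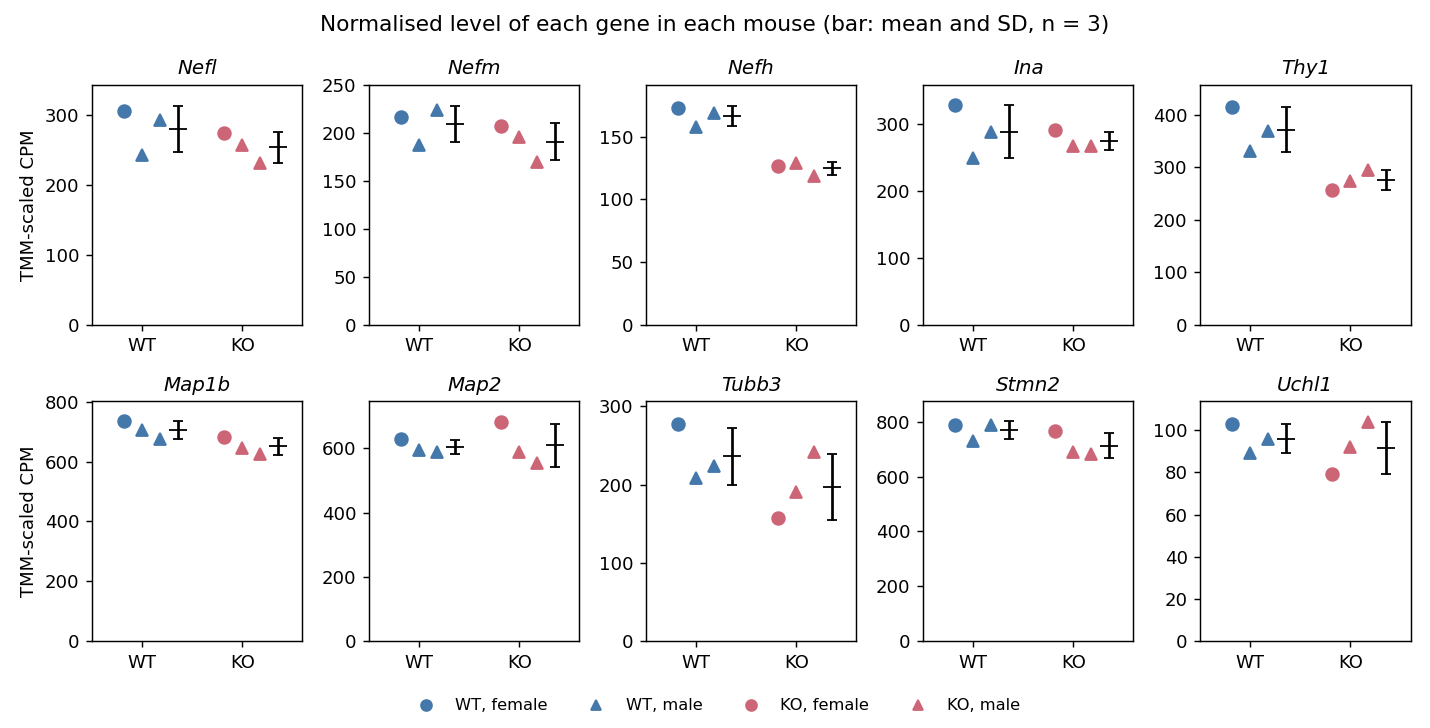
TMM-scaled CPM (vertical axis, from 0) of the 10 genes in WT and KO mice, with 1 point per mouse (circles female, triangles male) and bars at the mean and SD of 3 mice. The groups are apart in Nefh, with KO at 119 to 129 CPM and WT at 158 to 173 CPM, and in Thy1, and they overlap in the other 8.

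The filament subunits were compared first. Nefh (ENSMUSG00000020396, chromosome 11 at 4938754 to 4948064 of mm10, minus strand) encodes the heavy chain, the subunit with the longest tail. Its level was 173, 158 and 169 CPM in WT replicates 1 to 3 and 127, 129 and 119 CPM in KO replicates 1 to 3. Every KO mouse lay below every WT mouse, and the gap between the groups was wider than the range within either of them. Mean levels were 167 ± 7.83 (WT) and 125 ± 5.24 CPM (KO; SD, n = 3 each). This is a log2 fold change of -0.42 (standard error, SE, 0.07, 95% interval -0.57 to -0.26, edgeR adjusted p = 0.0565). Nefh passed the threshold in 9 of 17 alternative analyses, among them DESeq2, the males alone and the fit without a sex term, and its adjusted p over the 17 ran from 0.00023 to 0.42. Of the 9 passes, 1 was the same fit at a threshold of 0.10. Nefh did not pass without WT replicate 2 (adjusted p = 0.221 in edgeR), WT replicate 3 (0.42), KO replicate 2 (0.262) or KO replicate 3 (0.0685). Without WT replicate 2 or 3, only 1 gene of all passed. Nefh also did not pass in limma-voom (adjusted p = 0.0691) or the newer edgeR version (0.0622). The same held in edgeR with a choroid plexus score in place of sex (0.083) and with GC and length trends removed (0.175).

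The heavy chain gene is set apart from its relatives by its coding sequence, in which a lysine codon, a serine codon and a proline codon follow each other 51 times in frame, between codons 522 and 887 of 1090. The same reading found 4 such runs in the Nefm-201 transcript and 0 in those of Nefl and Ina. A stretch of 120 bases from exon 4 of Nefh shows 7 of these runs in capitals. It lies on chromosome 11 at 4940938 to 4941057 (GRCm38, the assembly of mm10, minus strand, GENCODE transcript Nefh-201), and is shown because it is the feature that distinguishes the subunit with the lowest KO level relative to WT.
Nefh exon 4, codons 521 to 560: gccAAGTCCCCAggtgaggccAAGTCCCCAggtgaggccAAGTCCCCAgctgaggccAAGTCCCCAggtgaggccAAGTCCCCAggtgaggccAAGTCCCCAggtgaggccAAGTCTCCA
Despite the repeats, 0.0% of the 50-base words of its transcript occur in a transcript of another gene.

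Nefl and Nefm, the light and medium chain genes, showed similar patterns over the 6 mice. Nefl was at 306, 243 and 292 CPM in WT and at 275, 257 and 231 CPM in KO. Nefm was at 217, 188 and 224 CPM in WT and at 207, 196 and 170 CPM in KO. In both genes WT replicate 2 was low within its group, and the KO values fell inside or just below the WT range. Nefl had a log2 fold change of -0.14 (SE 0.08, 95% interval -0.33 to 0.05, edgeR adjusted p = 0.695). That of Nefm was -0.14 (SE 0.09, 95% interval -0.34 to 0.07, edgeR adjusted p = 0.719). Both intervals overlap that of Nefh.

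The values of Nefl and Nefm may not be fully independent, because their gene models overlap on opposite strands of chromosome 14. Nefl lies on the plus strand at 68083863 to 68089095, inside the span of Nefm on the minus strand at 68082590 to 68124846. The long transcript Nefm-202 skips the last exon of Nefm-201, at 68119283 to 68121384, and ends in an exon at 68082590 to 68084970 that covers most of exon 1 of Nefl. The shared stretch, 68083863 to 68084970, holds 1108 bases, or 32.8% of the exonic bases of Nefl and 19.2% of those of Nefm. The model length in the deposited table, 5782 bases for Nefm, equals the union of both transcripts, so this exon was part of the authors' model. No label states whether reads were counted by strand, and without strand the reads of this stretch cannot be assigned to either gene. The bases at the end of the shared stretch are shown, in capitals inside it and in lower case beyond it, from exon 1 of Nefl on the plus strand at 68084941 to 68085000 (GRCm38, GENCODE transcript Nefl-201).
Nefl exon 1 across the end of the stretch shared with Nefm-202: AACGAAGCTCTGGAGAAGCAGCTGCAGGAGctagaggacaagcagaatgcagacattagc

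Ina encodes alpha-internexin, which can enter neurofilaments as a further subunit. Its level was 328, 249 and 289 CPM in WT and 290, 267 and 266 CPM in KO. The KO mice lay within the WT range, and the spread among WT mice was the wider one. KO over WT, this gave a log2 fold change of -0.07 (SE 0.08, 95% interval -0.24 to 0.11, edgeR adjusted p = 0.844). Ina overlaps Nt5c2 on the opposite strand over 456 bases, or 14.1% of its exonic length, and Nt5c2 had 2408 mean counts against 8087 for Ina.

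Ratios of subunits within a library do not depend on the scaling between libraries, but trends with GC content can remain in them. The longest transcript had a GC content of 48.8% in Nefl and 58.4% in Nefh. With GC and length trends removed, the log2 fold change was -0.15 for Nefl and -0.32 for Nefh. The ratios were not recomputed with those trends removed. Per kilobase of gene model, Nefh stood at 0.478, 0.549 and 0.490 of Nefl in WT mice and at 0.390, 0.424 and 0.435 in KO mice. The KO ratios were all below the WT ratios, with a mean of 0.416 ± 0.0237 against 0.505 ± 0.0379 (SD, n = 3 each). The difference in log2 ratio was -0.28, at p = 0.1 in an exact two-sided permutation test, the smallest p that 3 against 3 allows, and at 0.3 after adjustment over the 3 ratios tested. The ratio of Nefm to Nefl was 0.438 ± 0.0199 in WT and 0.439 ± 0.00847 in KO (SD, n = 3 each; exact permutation p = 1.0). The ratio of Ina to Nefl was 1.07 ± 0.0442 in WT and 1.13 ± 0.0645 in KO (SD, n = 3 each), with overlapping groups (exact permutation p = 0.3, adjusted 0.45). Light and medium chain transcripts thus differed in ratio by less than the spread between mice. Reads of their shared stretch could not be assigned if counting ignored strand, which is not stated. The heavy chain ratio was lower in each KO mouse than in any WT mouse.

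**Figure D2:**
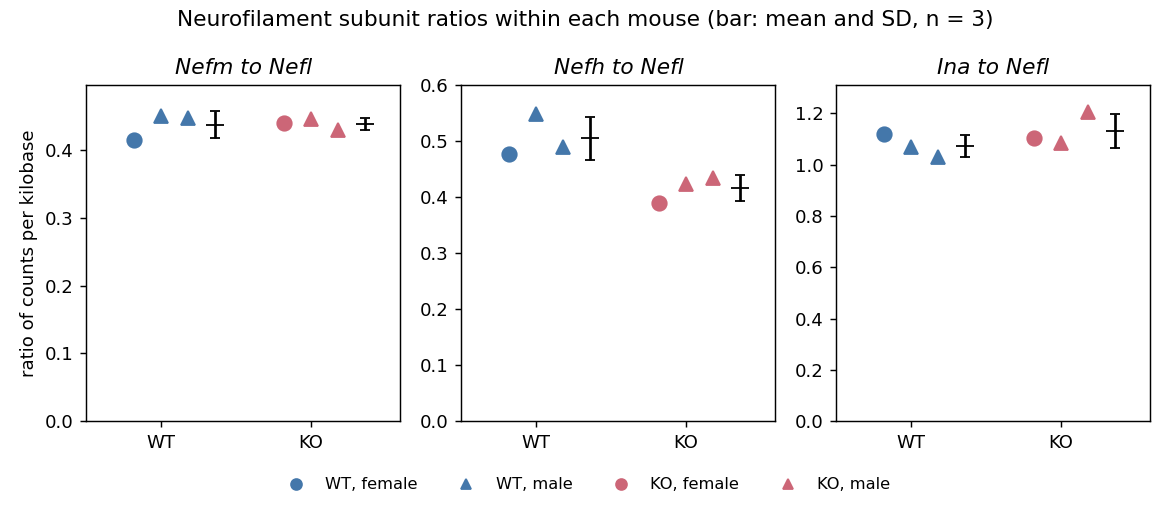
Ratio of counts per kilobase of Nefm, Nefh and Ina to Nefl (vertical axes, from 0) in each WT and KO mouse, with bars at the mean and SD of 3 mice. Only the ratio of Nefh separates the groups, at 0.390 to 0.435 in KO against 0.478 to 0.549 in WT.

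Thy1 (ENSMUSG00000032011, chromosome 9 at 44043384 to 44048579, plus strand) encodes a lipid-anchored glycoprotein of the neuronal surface. Its level was 415, 330 and 369 CPM in WT and 257, 274 and 294 CPM in KO. As with Nefh, each KO mouse was below each WT mouse, and these were the only 2 of the 10 genes whose groups did not overlap, where 14.1% of all genes tested did not overlap, 6.35% with KO lower. Mean levels were 371 ± 42.4 (WT) and 275 ± 18.5 CPM (KO; SD, n = 3 each), a log2 fold change of -0.43 (SE 0.09, 95% interval -0.64 to -0.21, edgeR adjusted p = 0.156). Thy1 passed in 4 of 17 alternatives, namely DESeq2, no filter on low counts, removal of trends with GC content and length, and without KO replicate 3, and its adjusted p over the 17 ran from 0.0045 to 0.578. It was at -0.30 without WT replicate 1 and -0.31 without KO replicate 1, the females, and -0.51 without WT replicate 2. Between the female mice the difference was -0.69 on the log2 scale, and between the means of the males -0.30. With 1 female per genotype, sex and the single mouse cannot be told apart, and the difference between the sexes was not tested.

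**Figure D3:**
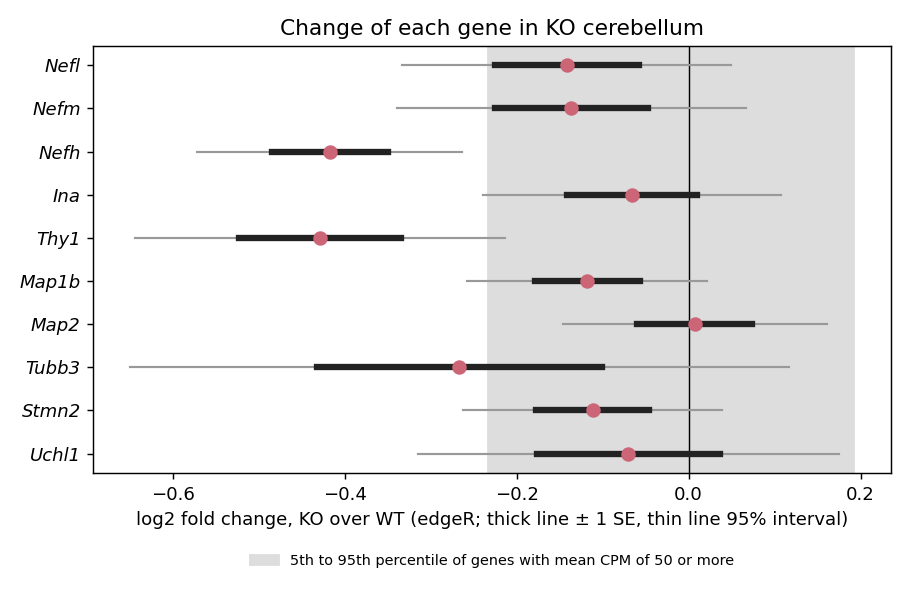
Log2 fold change of the 10 genes, KO over WT (horizontal axis), from edgeR, with ± 1 SE as thick and the 95% interval as thin lines, and the 5th to 95th percentiles of 4978 genes averaging 50 CPM or more shaded (-0.23 to 0.19). Nefh at -0.42 and Thy1 at -0.43 lie left of the shaded band with intervals below 0, Tubb3 at -0.27 lies left of it with an interval that spans 0, and the other 7 lie inside it.

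Among the microtubule genes Tubb3, the beta-tubulin used as a marker of neurons, was the most variable. It was at 277, 208 and 223 CPM in WT and at 158, 191 and 242 CPM in KO. The female KO mouse was the lowest and the female WT mouse the highest of all 6, while a male KO mouse exceeded both male WT mice. Its log2 fold change was -0.27 (SE 0.17, 95% interval -0.65 to 0.12, edgeR adjusted p = 0.709). It was -0.01 in the males alone and 0.0035 without WT replicate 1, and the female pair differed by -0.81 on the log2 scale. Without KO replicate 3, the male KO mouse above both male WT mice, it was -0.43. The value thus depended on single mice of either sex, and with 1 female per genotype, sex and the single mouse cannot be told apart. Tubb3 lies within the span of the long model Gm20388 but shares 0 exonic bases with it.

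Map1b encodes a microtubule-associated protein of growing axons, and in these adult mice it was among the abundant genes of the set. Its level was 736, 706 and 677 CPM in WT and 681, 645 and 626 CPM in KO. The groups met at their edges, with the female KO mouse just above the lowest WT mouse. A log2 fold change of -0.12 (SE 0.06, 95% interval -0.26 to 0.02, edgeR adjusted p = 0.646) was fitted. Map2 encodes the corresponding protein of dendrites. It was at 630, 594 and 589 CPM in WT and at 683, 589 and 554 CPM in KO, so that the KO mice held both the highest and the lowest value. Its log2 fold change was 0.0070 (SE 0.07, 95% interval -0.15 to 0.16, edgeR adjusted p = 0.985), the only 1 of the 10 not below 0, and -0.06 in the males alone.

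Stmn2 encodes stathmin-2, a tubulin-binding protein of axons and growth cones. It was at 788, 731 and 789 CPM in WT and at 767, 691 and 681 CPM in KO. Both KO males were below all WT mice and the KO female was not. Stmn2 had a log2 fold change of -0.11 (SE 0.07, 95% interval -0.26 to 0.04, edgeR adjusted p = 0.695). Uchl1 encodes an abundant neuronal ubiquitin hydrolase. It was at 103, 89.0 and 95.8 CPM in WT and at 79.3, 91.8 and 104 CPM in KO, and the KO mice again held both ends of the range. Its log2 fold change was -0.07 (SE 0.11, 95% interval -0.31 to 0.17, edgeR adjusted p = 0.879), and it was 0.07 in the males alone. Uchl1 overlaps the antisense gene Uchl1os over 295 bases, and Uchl1os had 1.8 mean counts against 2700 for Uchl1.

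Counting noise was small beside the spread between mice. The lowest count of any of the 10 genes was 2016, for Uchl1 in KO replicate 1, which gives a counting error of 2.23%, and the other genes had smaller ones. The range among the 3 KO mice was 0.62 on the log2 scale in Tubb3, 0.39 in Uchl1 and 0.30 in Map2, but 0.12 in Nefh and 0.12 in Map1b.

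The mice did not rank alike for all of the genes. Within KO, replicate 1, the female, was the highest for Nefl, Nefm, Ina, Map1b, Map2 and Stmn2 and the lowest for Thy1, Tubb3 and Uchl1. KO replicate 3 was the lowest for 7 of the 10, Nefh included, and the highest for the same 3 genes in which the female was lowest. Within WT, replicate 1, the female with few choroid plexus transcripts, was the highest for 8 of the 10, and replicate 2 the lowest for 8. With the choroid plexus score of each library in place of sex, Nefh was at -0.41 (edgeR adjusted p = 0.083), Thy1 at -0.38 (0.1248) and Tubb3 at -0.19 (0.824). The female pair differed in the same direction as the means of the males in 8 of the 10 genes, with Map2 and Uchl1 as the exceptions.

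Levels can be compared between genes only per length of gene model. In WT the order of CPM per kilobase was Thy1 (214 ± 24.5), Stmn2 (137 ± 5.87), Tubb3 (127 ± 19.4), Ina (89.1 ± 12.1), Nefl (83.0 ± 9.74), Map1b (59.6 ± 2.48), Uchl1 (59.4 ± 4.35), Nefh (41.7 ± 1.96), Map2 (36.7 ± 1.35) and Nefm (36.3 ± 3.31; SD, n = 3 each). The WT mice overlapped between neighbours in 4 places of this order, Stmn2 with Tubb3, Ina with Nefl, Map1b with Uchl1, and Map2 with Nefm. In KO, Nefh came last at 31.2 ± 1.31 CPM per kilobase, below Map2 at 37.0 ± 4.05 in every mouse and overlapping Nefm at 33.0 ± 3.35 (SD, n = 3 each). The place of Nefm depends on its model: on the 3334 bases of Nefm-201 alone it would stand at 62.9 ± 5.74 CPM per kilobase in WT and 57.3 ± 5.81 in KO. The places of Thy1 and Map1b depend on their models too. The deposited lengths, 1735 and 11852 bases, are shorter than their exonic unions in GENCODE M21, 2995 and 15846 bases. On those unions both genes would stand lower.

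Among the cell type markers read beside Nefh and Thy1, those of Purkinje cells were lower in KO. Of 20 Purkinje cell markers tested, 20 were lower in KO by their mean and 8 fell in edgeR, with a list median of -0.52. KO replicates 1 to 3 had list medians of -0.47, -0.61 and -0.41 against the WT mean, and WT mice -0.07 to 0.06. Nefh stood at -0.39, -0.37 and -0.49 relative to WT in the same KO mice and Thy1 at -0.52, -0.43 and -0.33. The list was drawn up with its fall in these mice known, and the part of Purkinje cells in the values of Nefh and Thy1 was not tested. Markers of deep nuclei and unipolar brush cells, which include neurofilament-rich neurons, had a median of 0.19 on the log2 scale, 0 of 8 called, and a summed level of 227 to 269 CPM in WT and 278 to 333 CPM in KO, where Spp1, also a gene of reactive microglia, is a member. Oligodendrocyte markers had a median of -0.05 and 0 of 8 called, with summed levels of 3908 to 5435 CPM in WT and 4537 to 4606 CPM in KO. Granule cell markers had a median of 0.07 and 0 of 12 called, with summed levels of 6699 to 7278 CPM in WT and 7074 to 7623 CPM in KO.

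The wider cytoskeleton of the axon and genes related to it were read from 9 lists with 117 gene models tested. Of these, 1 rose, 0 fell and 84 had a log2 fold change below 0 (edgeR, against 0.283% of all genes called and 49.9% below 0). At an unadjusted p under 0.05 there were 10 of 117, against 8.96% of all genes. DESeq2 called 5 of the 117, beside 232 of 16934 genes, and limma-voom called 1, beside 43. The riser was Gfap, the intermediate filament gene of astrocytes, from 195 ± 43.5 to 358 ± 23.4 CPM (SD, n = 3 each; log2 fold change 0.90, SE 0.10, edgeR adjusted p = 0.0214). It did not pass without WT replicate 2 (edgeR adjusted p = 0.154) or WT replicate 3 (0.223). The other 9 tested genes of intermediate filaments and plakin linkers ran from -0.10 to 0.13. Vim, a filament gene of glia, was at 0.02 (SE 0.06) and Dst, which encodes a linker of filaments to microtubules, at -0.06 (SE 0.06), with edgeR adjusted p-values of 0.94 and 0.817. Prph, the filament gene of peripheral neurons, had at most 12 counts and was not tested.

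Of 13 tubulin genes 0 passed, 11 were below 0 and the median log2 fold change was -0.14. Mouse by mouse, the tubulin median against the WT mean was 0.09, -0.04 and -0.06 in WT replicates 1 to 3. In KO replicates 1 to 3 it was -0.31, -0.13 and 0.03, so the genotypes overlapped. Tuba1a, the main neuronal alpha-tubulin, was at -0.01 (SE 0.08), and Tubb4a, a beta-tubulin of neurons and oligodendrocytes, at -0.11 (SE 0.13), both above 0 in the males alone. Tuba4a was at -0.13 (SE 0.08). Tuba8 at -0.50 (SE 0.11, edgeR adjusted p = 0.144) and Tubb2a at -0.31 (SE 0.10, edgeR adjusted p = 0.367), both named after their values were seen, had an unadjusted p under 0.05 and groups that did not overlap, with KO lower. Tubulins are close paralogs, and their counts depend on how shared reads were assigned, which the labels do not say. Of 21 models of microtubule-associated proteins, with Map4 present as 2 models, 0 passed, 15 were below 0 and the median was -0.07. Mapt, which encodes tau, was at -0.04 (SE 0.06), and Map1a, the adult relative of Map1b, at -0.20 (SE 0.10). Dpysl2, which encodes a tubulin-binding protein of axon growth, was at 0.0082 (SE 0.07). Among stathmins and growth-associated proteins 0 of 7 passed, with Stmn3 at -0.18 (SE 0.09) and Gap43 at 0.06 (SE 0.07).

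Spectrins, ankyrins and adducins form the lattice under the axonal membrane, and 0 of 11 passed while 10 were below 0, with a median of -0.08. Against the WT mean, the list median was 0.08, -0.03 and -0.04 in WT replicates 1 to 3. In KO replicates 1 to 3 it was -0.26, -0.09 and -0.02, so the genotypes overlapped. Sptan1, which encodes an alpha-spectrin, was at -0.17 (SE 0.08) and Ank1 at -0.21 (SE 0.10). Of 20 transport motors and adaptors 0 passed, 15 were below 0 and the median was -0.08. Kif5a, a kinesin heavy chain gene of neurons that carries neurofilaments along axons, averaged 1053 ± 179 (WT) and 826 ± 35.95 CPM (KO; SD, n = 3 each; log2 fold change -0.34, SE 0.09, edgeR adjusted p = 0.247). It passed in DESeq2, with no filter on low counts and after removal of GC and length trends, and was at -0.22 without WT replicate 1 or KO replicate 1. Kif1a was at -0.11 (SE 0.08) and the dynein heavy chain gene Dync1h1 at -0.11 (SE 0.09).

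Of 15 genes of neurofilament kinases and turnover 0 passed and the median was -0.12, with the kinase genes Cdk5 at -0.12 (SE 0.09) and Gsk3b at -0.02 (SE 0.06). Of 7 ubiquitin and ubiquitin hydrolase genes 0 passed, with Uchl3, a relative of Uchl1, at 0.01 (SE 0.12) and Ubb at -0.12 (SE 0.10). Of 13 tested genes of axon injury and degeneration 0 passed, with a median of -0.03. The injury-induced transcription factor gene Atf3 averaged 2.02 ± 0.51 (WT) and 3.58 ± 0.134 CPM (KO; SD, n = 3 each; log2 fold change 0.83, SE 0.22, edgeR adjusted p = 0.241). Sarm1, which drives axon degeneration, was at -0.02 (SE 0.11) and Nmnat2, which protects axons, at -0.09 (SE 0.08). Jun, named after its values were seen, was at 0.72 (SE 0.12, edgeR adjusted p = 0.0718). The lists of the axonal cytoskeleton thus had more log2 fold changes below 0 than above, with Gfap as their only call in edgeR.

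**Figure D4:**
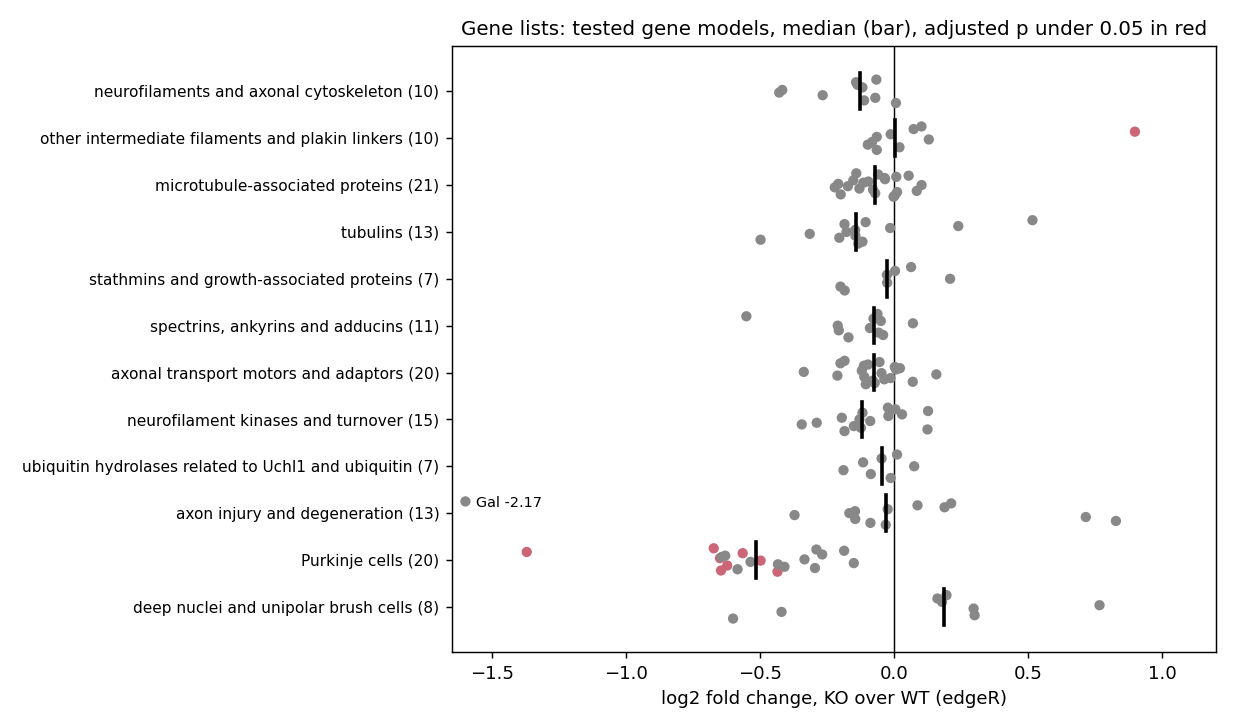
Log2 fold change, KO over WT, in edgeR (horizontal axis) of the tested gene models of each list (number in brackets), with the list median as a bar and adjusted p under 0.05 in red. Medians of the cytoskeletal lists lie between -0.14 and 0.0040, the Purkinje list lies at -0.52 with 8 red points, and Gal, at -2.17 with at most 16 counts and singled out after its value was seen, is drawn at the left edge.

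The genes whose levels were most like those of Nefh over the 6 libraries, by Pearson's r of log2 CPM among 10404 other genes averaging 10 CPM or more, were Atrnl1 (r = 0.993), Adam19 (0.99), Scd3 (0.988), Etv4 (0.987) and Trib2 (0.984). All 5 were lower in KO by their mean, with log2 fold changes of -0.25 to -0.39, and 0 passed in edgeR. These values describe 6 libraries that share the genotype difference of Nefh.

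**Figure D5:**
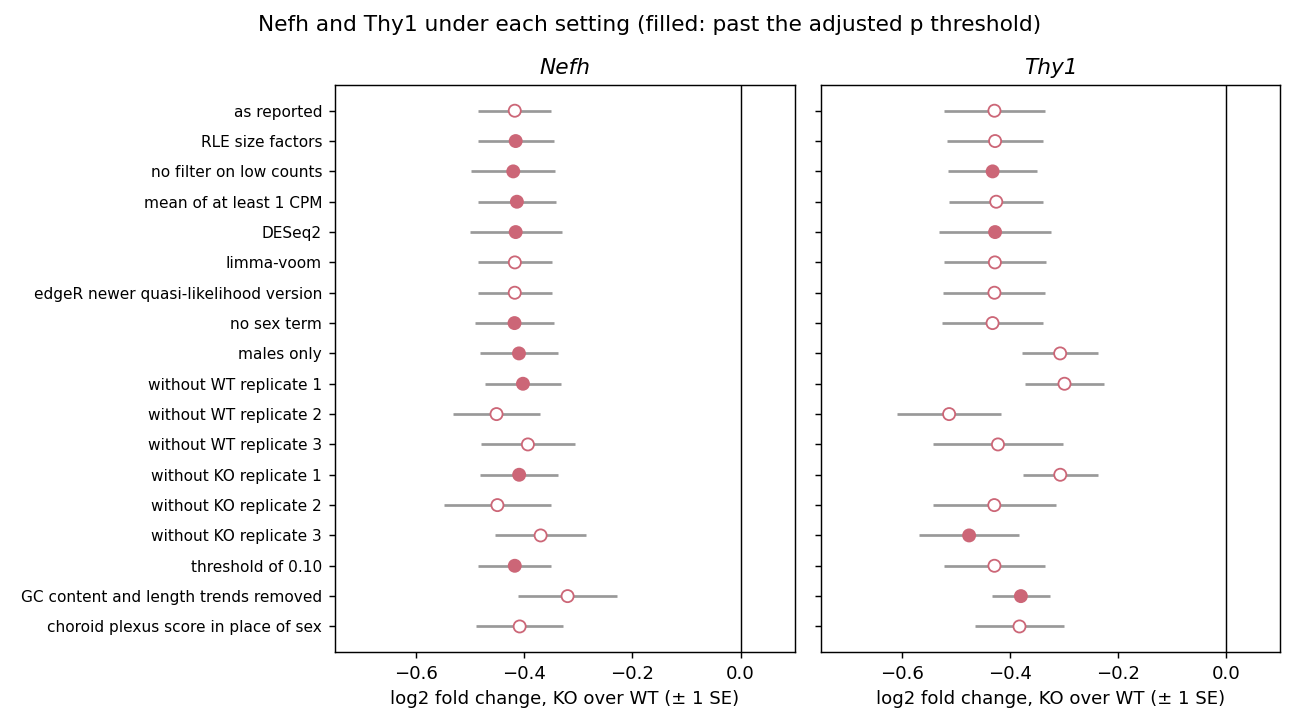
Log2 fold change of Nefh and Thy1, KO over WT, with ± 1 SE (horizontal axes), as reported and under 17 alternatives (vertical axis), filled where the adjusted p passed the threshold. Nefh stays between -0.45 and -0.32 and Thy1 between -0.51 and -0.30, and each crosses the threshold in some alternatives, 9 for Nefh and 4 for Thy1.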

How the data were processed

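The deposited table holds raw counts per gene, 1 column per mouse, with coordinates, model length and symbol per the file headers. STAR and mm10 are named in the submitters' processing notes. For the counting tool, the strand setting and the release of the annotation, no statement is given in the sources used here. All 37 mitochondrial genes had 0 counts.

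The test was run with edgeR 4.0.16 (R 4.3.3): filterByExpr on genotype (minimum count 10), TMM scaling, a model of sex and genotype, and the robust quasi-likelihood F test (legacy version, two-sided), adjusted by Benjamini-Hochberg over 16934 genes at 0.05. SE is the absolute log2 fold change over the square root of F, and 95% intervals use the moderated degrees of freedom. Alternatives included DESeq2 1.42.0 and limma 3.58.1 (voom). On simulated counts for 16934 genes of KO against WT, 67.7% of 1.5-fold and 95.7% of 2-fold changes were recovered, with 4.29% false calls. Changes as small as those of the 10 genes, Nefh and Thy1 included, were not simulated.

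Genes, lists and tests were chosen with earlier results of these data known. Named were Tmem106b, the 10 genes, pathway genes past the threshold, anchors chosen for their role, and the 5 genes most like Nefh; 1 anchor is not reported here. Coding and exon positions come from GENCODE M21 (GRCm38), which matched the table's coordinates for 8 of the 10 genes. The exonic lengths differed for Thy1, Map1b and Uchl1. Tmem106b had a log2 fold change of -1.88 (edgeR adjusted p = 1.37e-04). The lists of choroid plexus (median log2 fold change 0.51), microglia (0.605), red blood cells (0.56), interneurons (-0.03) and astrocytes (0.02) were read as context only.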

Additional observations from a re-analysis of the deposited data

How the results depend on the processing

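The count of changed genes, 48 as reported, was 75 with RLE size factors, 199 with no filter on low counts, 76 with a mean of at least 1 CPM, 232 in DESeq2, 111 in males only, 109 at a threshold of 0.10, 271 after removal of trends with GC content and length, and 1 to 156 with each library left out. Of the 10 genes, 0 as reported, 1 passed with RLE size factors, a mean of at least 1 CPM, no sex term, males only and a threshold of 0.10 (Nefh) and after removal of GC and length trends (Thy1), 2 passed with no filter and in DESeq2 (both), and 0 to 1 with each library left out. Nefh was at -0.32 (SE 0.09, edgeR adjusted p = 0.175) with those trends removed. Of the pathway models, 1 as reported, 0 to 7 passed. The median of the 10 ran from -0.17 to -0.08 over 17 alternatives, and Nefl, Nefm, Nefh, Ina, Thy1, Map1b and Stmn2 were below 0 in each.

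Signs changed in these results. In males only, Map2 was at -0.056, Uchl1 at 0.074, Dpysl2 at -0.038, Tuba1a at 0.085, Tubb4a at 0.092, Dync1h1 at 0.017, Uchl3 at -0.0065, Ubb at 0.022, Sarm1 at 0.10 and the log2 ratio of Nefm to Nefl at -0.038. With GC content and length trends removed, Map2 was at -0.022, Vim at -0.0089, Dpysl2 at -0.0087, Tuba1a at 0.0021, Uchl3 at -0.093 and Sarm1 at 0.056. With the choroid plexus score, Vim was at -0.012, Tuba1a at 0.012 and Sarm1 at 0.0043. With each library left out, the ranges were -0.056 to 0.068 for Map2, -0.43 to 0.0035 for Tubb3, -0.15 to 0.082 for Uchl1, -0.076 to 0.00041 for Mapt, -0.038 to 0.065 for Dpysl2, -0.061 to 0.093 for Tuba1a, -0.20 to 0.10 for Tubb4a, -0.16 to 0.025 for Dync1h1, -0.092 to 0.13 for Uchl3, -0.19 to 0.030 for Ubb, -0.11 to 0.11 for Sarm1 and -0.034 to 0.026 for the log2 ratio of Nefm to Nefl. The cause was not tested. No paired analysis was possible because the replicate numbers follow the order of deposit and pair no mice. The counting error of the 10 genes was at most 2.23% in any library, and no alternative varied the depth.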

Other observations

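The 3 genes in which KO replicate 1 was lowest and KO replicate 3 highest, Thy1, Tubb3 and Uchl1, are also the 3 with the shortest models, of 1735, 1868 and 1616 bases, while the other 7 have 3240 to 16449. Among all genes averaging 50 CPM or more, the median deviation of KO replicate 1 from its group mean was -0.0056 on the log2 scale for 459 genes under 2 kb and 0.05 for 2493 genes over 5 kb, and that of KO replicate 3 was 0.04 and -0.03. After removal of trends with GC content and length, Thy1 was at -0.38 and passed (edgeR adjusted p = 0.0069), while Tubb3 was at -0.19 (0.468) and Uchl1 at -0.01 (0.957). The log2 range among the KO mice, 0.19 in Thy1, 0.62 in Tubb3 and 0.39 in Uchl1, was wider than the median deviations by length. Whether model length bears on the 3 genes was not tested further.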
